A study of Mus musculus and Rattus norvegicus with 36 samples.

Results

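Abcc1 to Abcc6 encode adenosine triphosphate (ATP)-driven efflux pumps of the multidrug resistance-associated protein family, and their transcripts were followed here over all diets in the liver and kidney of mice and the liver of rats. Every probe set annotated to 1 of these 6 symbols was taken, which gave 23 of 76079 probe sets (sets of oligonucleotides for 1 transcript), 16 of 45037 on the mouse array and 7 of 31042 on the rat array. On the mouse array Abcc5 had 10 probe sets, Abcc1 had 2 and the other genes had 1 each, whereas on the rat array Abcc5 had 2 and the others had 1 each. None of the 23 carried several symbols and none was removed by a filter. The family was selected on measured values, namely the levels of Abcc4, Abcc3 and Abcc2 without added Se and with 5 μg Se/g added to the diet, so differences from the Se-adequate group in those comparisons are descriptions. For the main fit the number of members called there is printed beside the share of all probe sets called. Nothing is read from it, nor from the counts of alternative fits. The comparisons of the diets with 0.05, 2 and 0.8 μg Se/g were not used for that choice, and there the result of limma is given.

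Messenger RNA was profiled on 36 Affymetrix arrays, 1 per RNA sample and 3 per group. Male weanling mice, wild type and mostly of a C57 black background, were fed for 35 days, and male weanling Holtzman rats for 28 days. All animals received the same torula yeast diet, low in Se and fortified with vitamin E and methionine, and the groups differed in the sodium selenite added to it. Liver and kidney arrays may come from the same 3 mice per diet. Diets are named by that addition in μg Se per g of diet. Mouse liver and kidney came from animals on a Se-deficient diet without added Se, the 0.05 diet and the Se-adequate 0.2 diet. Rat liver came from a study with the Se-deficient, the Se-adequate 0.24, the 2 and the 5 diet. It also came from another with the 0.08 and the 0.8 diet. Per the paper both studies fed further diets, from which no arrays were used. Below, the diets of a study are counted by those with arrays. Values are log2 expression, so a difference of 1 is a doubling. Per the methods each tissue and study was normalized on its own, so levels are compared only within a tissue and study. Array medians lay between 6.174 and 6.293 on all 36 arrays, and the number of arrays, not a read depth, limits the precision. In mouse liver the 6 measured hepatocyte markers averaged 13.97 to 14.07 on the Se-deficient and Se-adequate arrays, and in mouse kidney the 6 proximal tubule markers averaged 12.33 to 12.61, so the labelled tissues carried their defining transcripts. The 7 hepatocyte markers averaged 13.78 to 13.92 on the Se-deficient and Se-adequate arrays of rat liver.

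ABC transporters of this family move organic anions out of cells, among them conjugates with glutathione, glucuronate and sulfate. In hepatocytes Abcc2 lies in the canalicular membrane and exports bilirubin glucuronides and glutathione conjugates into bile, while Abcc3 and Abcc4 lie in the basolateral membrane and return bile acids and conjugates to blood. Abcc1 exports leukotriene C4 and glutathione conjugates in many tissues, Abcc5 exports cyclic nucleotides, and Abcc6 is needed for ATP release from hepatocytes, its loss causing ectopic mineralization. Several members are known targets of the transcription factor Nrf2 (Nfe2l2), which binds antioxidant response elements together with small Maf proteins.

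For orientation, mouse promoter stretches of Abcc4 and Abcc2 follow, because they show where the letters of the antioxidant response element core occur. RefSeq promoter entries on GRCm38.p6 were found for Abcc4 (2 annotated starts), Abcc2 and Abcc5, and none for Abcc1, Abcc3 or Abcc6. Those for Abcc4 and Abcc2 are shown as the 250 bases before each start, written 5′ to 3′ on the strand of the gene. The window of Abcc5, which held no match, is not printed. Capitals mark each match to TGACNNNGC, searched on both strands, where N is any base.
Abcc4, start 1 (chr14:118706220-118706469, minus strand): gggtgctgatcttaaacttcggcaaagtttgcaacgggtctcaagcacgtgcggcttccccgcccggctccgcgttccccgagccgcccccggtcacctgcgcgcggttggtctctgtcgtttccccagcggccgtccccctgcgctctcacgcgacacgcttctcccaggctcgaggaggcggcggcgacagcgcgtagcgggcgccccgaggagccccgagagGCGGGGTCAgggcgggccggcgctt
Abcc4, start 2 (chr14:118676932-118677181, minus strand): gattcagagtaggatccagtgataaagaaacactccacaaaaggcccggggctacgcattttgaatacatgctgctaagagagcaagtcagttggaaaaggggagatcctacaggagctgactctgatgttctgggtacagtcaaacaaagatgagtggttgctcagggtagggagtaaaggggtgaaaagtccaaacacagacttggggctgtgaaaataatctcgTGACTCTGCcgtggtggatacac
Abcc2 (chr19:43782058-43782307, plus strand): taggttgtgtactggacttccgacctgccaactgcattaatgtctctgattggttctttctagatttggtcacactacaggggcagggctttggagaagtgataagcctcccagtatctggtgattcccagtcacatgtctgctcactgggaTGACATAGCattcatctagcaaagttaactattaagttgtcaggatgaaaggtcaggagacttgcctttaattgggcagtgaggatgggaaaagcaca
In the window of start 1 of Abcc4 the match reads GCGGGGTCA and lies on the opposite strand, its leftmost base 25 bases before the start. In the window of start 2 it reads TGACTCTGC and begins 23 bases before the start. Both windows lie within the annotated span of Abcc4 (chr14:118482692-118707856). In Abcc2 (gene span chr19:43782308-43838332) the match reads TGACATAGC and begins 98 bases before the start. The Abcc5 window held 0 matches. Among all 32851 mouse promoter windows of this length, 3338 (10.2%) held at least 1 match, and a match is a run of letters and not a measured binding site. The remaining mouse genes span chr16:14361453-14474878 (Abcc1), chr11:94343295-94393017 (Abcc3), chr16:20331303-20426428 (Abcc5) and chr7:45974110-46030491 (Abcc6).

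In mouse liver, Se deficiency was accompanied by a higher level of Abcc4, with smaller differences in Abcc2 and Abcc3. Abcc4 had a mean of 9.02 ± 0.44 (SD, n = 3) in Se-deficient liver against 7.13 ± 0.36 on the 0.2 diet, a 3.70-fold difference. Its arrays read 9.50, 8.63 and 8.93 in Se deficiency, 6.70, 7.04 and 7.09 on the 0.05 diet, and 7.54, 6.99 and 6.86 on the 0.2 diet. All Se-deficient arrays lay above all others, while the groups on the 0.05 and 0.2 diets overlapped. The log2 difference from the Se-adequate group was 1.89 (SE 0.22).

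Abcc2, the canalicular exporter, read 11.20, 10.80 and 11.05 in Se-deficient liver, 10.81, 10.65 and 10.42 on the 0.05 diet and 10.59, 10.58 and 10.49 on the 0.2 diet. The lowest Se-deficient array lay above the highest Se-adequate array but below 1 array on the 0.05 diet, and the log2 difference from the Se-adequate group was 0.46 (SE 0.12). Abcc3, the basolateral exporter of glucuronides, read 11.37, 10.97 and 11.27 in Se deficiency, 10.83, 10.74 and 10.64 on the 0.05 diet and 10.84, 10.90 and 10.74 on the 0.2 diet. Its Se-deficient arrays lay above all others, by 0.37 (SE 0.11) in mean log2 over the Se-adequate group. Abcc6, Abcc5 and Abcc1 overlapped between these diets. Abcc6 averaged 9.82 ± 0.22 in Se deficiency and 9.74 ± 0.06 on the 0.2 diet, Abcc5 9.21 ± 0.08 and 9.24 ± 0.04, and Abcc1 5.83 ± 0.07 and 5.88 ± 0.22 (SD, n = 3 each). The remaining 9 probe sets of Abcc5 differed by −0.17 to 0.07 on the log2 scale and the remaining Abcc1 probe set by 0.03. The level of Abcc1 lay below the array medians, and with no detection calls at hand its distance from background was not tested.

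With an adjusted p below 0.05 in limma as the rule for a call, 1 of the 16 mouse probe sets was called in Se-deficient liver, that of Abcc4, where 0.0222% of all probe sets were called. Groups did not overlap for 3 of 16, against 7.61% of all probe sets. The median log2 difference was −0.002 over the 16 and −0.016 over all probe sets. These counts restate the values on which the family was selected and are not evidence for them. The call of Abcc4 was lost in 4 of 6 fits that left out 1 array, those without replicate 1 or 3 of the Se-deficient diet and without replicate 2 or 3 on the 0.2 diet, while its log2 difference stayed between 1.65 and 2.09 over the 6 fits. In bulk tissue, more RNA of a gene per cell cannot be told apart from more cells that express it. The 5 macrophage markers all had higher means in Se-deficient liver, by 0.07 (Clec4f) to 0.45 (Marco), with list averages of 7.51 to 8.80 on the Se-deficient and 7.63 to 7.99 on the Se-adequate arrays. All 5 also had higher means on the 0.05 than on the 0.2 diet, with a median log2 difference of 0.305, against 0.205 in Se deficiency. None of the 5 was called in either comparison, and their part in the Abcc values was not tested.

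**Figure D1:**
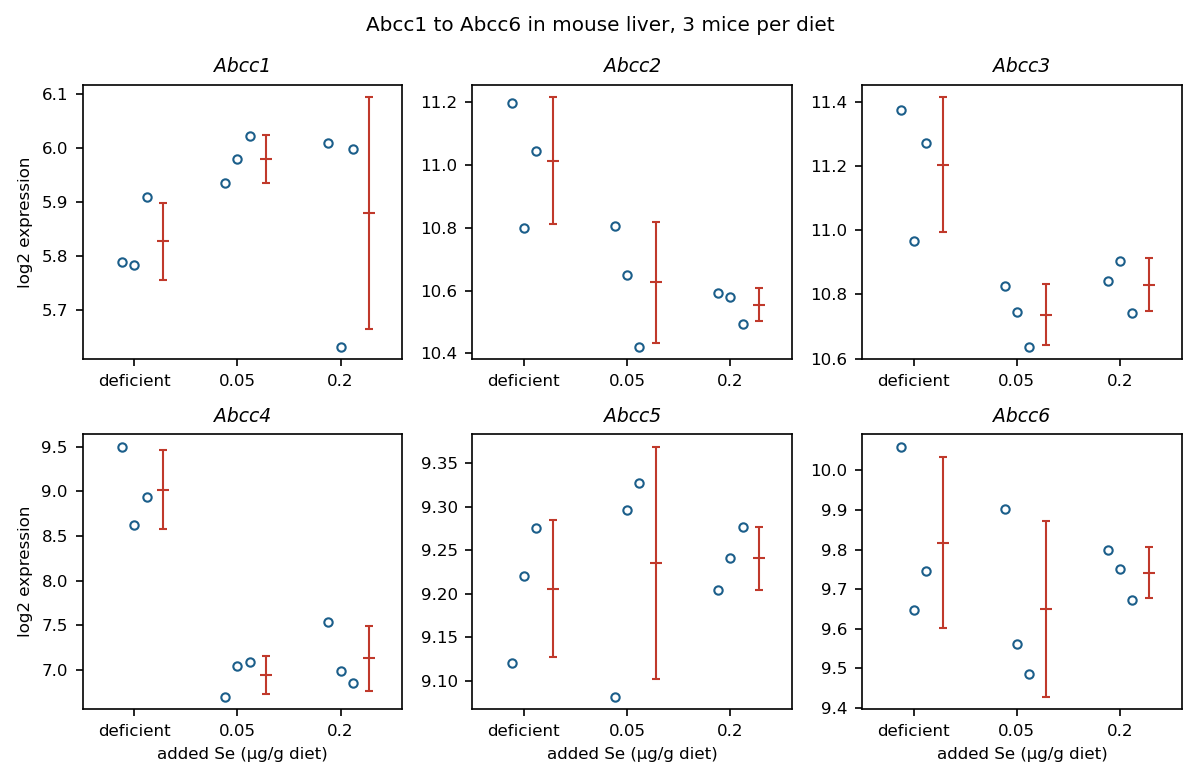
Log2 expression of Abcc1 to Abcc6 in mouse liver (vertical axes, a separate range per gene) against the Se added to the diet (horizontal axes, none, 0.05 and 0.2 μg/g). Circles are single mice and red bars the mean and SD of 3. The Se-deficient circles of Abcc4, from 8.63 to 9.50, lie above every circle of the other diets, and those of Abcc5 lie among them.

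In mouse kidney, Abcc4 and Abcc2 were again the members with higher levels in Se deficiency, while Abcc3 overlapped. Abcc4 averaged 8.78 ± 0.23 (SD, n = 3) in Se-deficient kidney and 7.86 ± 0.13 on the 0.2 diet. The arrays of Abcc4 read 8.99, 8.54 and 8.80 in Se deficiency, 7.56, 7.64 and 7.47 on the 0.05 diet and 8.01, 7.78 and 7.78 on the 0.2 diet. No pair of the 3 diets overlapped, with the group on the 0.05 diet lowest. The difference between Se-deficient and Se-adequate kidney was 0.92 on the log2 scale (SE 0.12), or 1.90-fold.

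Abcc2, which lies in the apical membrane of the proximal tubule, read 10.13, 10.10 and 9.96 in Se-deficient kidney, 10.20, 9.54 and 9.72 on the 0.05 diet and 9.77, 9.81 and 9.53 on the 0.2 diet. Its Se-deficient and Se-adequate arrays did not overlap, and the log2 difference was 0.36 (SE 0.15). Abcc3 read 6.47, 6.38 and 6.49 in Se deficiency and 6.42, 6.38 and 6.35 on the 0.2 diet, overlapping at a log2 difference of 0.06 (SE 0.08). Abcc6 differed by 0.08 (SE 0.07), Abcc5 by −0.08 (SE 0.08) and Abcc1 by −0.10 (SE 0.09), all with overlap. The probe sets not standing for their gene differed by −0.13 to 0.10 for Abcc5 and by −0.20 for Abcc1. Abcc3 lay close to the array medians of kidney (6.241 to 6.293), and Abcc6 had means below them. With no detection calls at hand, the distance of both genes from background was not tested.

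In Se-deficient kidney limma called 0 of the 16 probe sets, where 0.00666% of all were called. At an unadjusted p under 0.05 there were 3 of the 16 and 2442 of all 45037. Of the 3, Abcc4 and Abcc2 had higher means in Se deficiency. The other, the Abcc1 probe set not standing for its gene, had a lower mean (−0.20). Groups did not overlap for 2 of 16, against 8.66% of all probe sets. As in liver, these counts restate the values on which the family was selected and are not evidence for them. Array weights gave a call for Abcc4 in this tissue (a log2 difference of 0.92), as did leaving out replicate 2 of the Se-deficient diet (1.04). These fits called 0.0133% and 0.00888% of all probe sets. The 6 proximal tubule markers averaged 12.53 to 12.61 in Se-deficient kidney and 12.33 to 12.53 on the 0.2 diet. Of these markers 5 had a higher mean in Se deficiency and 0 were called, and their part in the values of Abcc2 and Abcc4 was not tested.

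**Figure D2:**
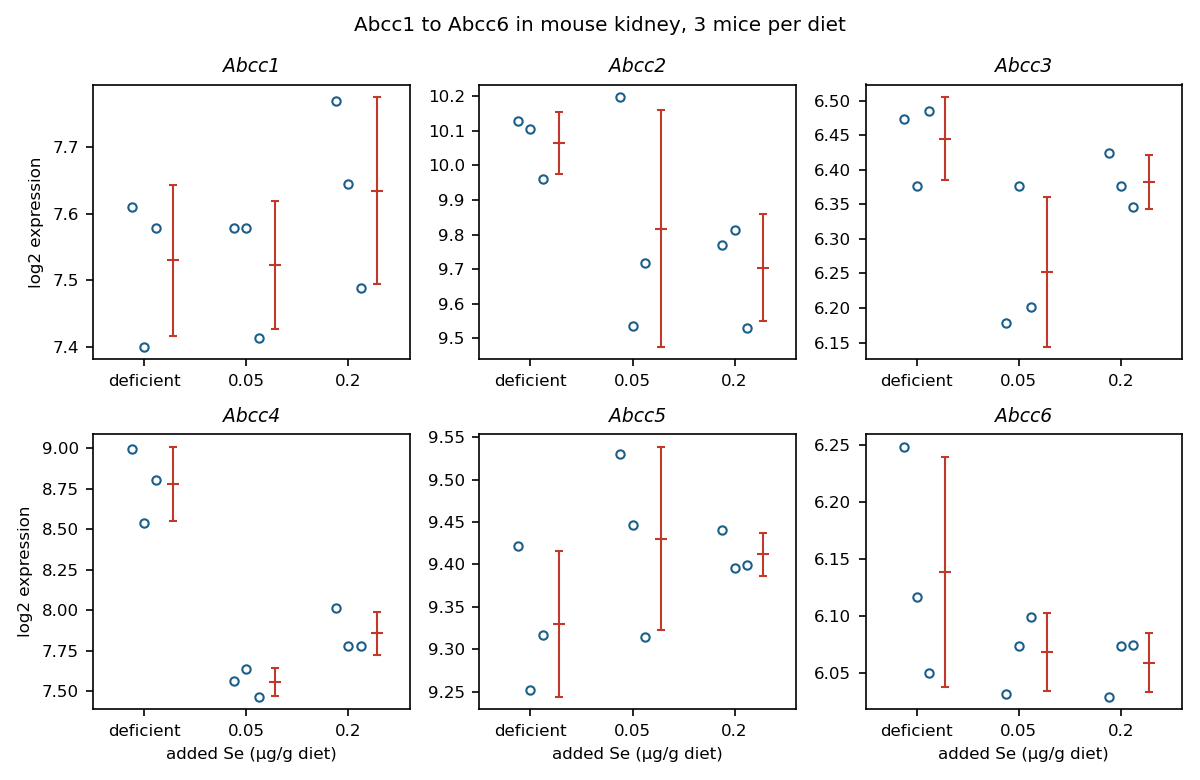
Log2 expression of Abcc1 to Abcc6 in mouse kidney (vertical axes, a separate range per gene) against the Se added to the diet (horizontal axes, none, 0.05 and 0.2 μg/g). Circles are single mice and red bars the mean and SD of 3. The circles of Abcc4 fall into 3 ranges that do not overlap, from 7.47 at 0.05 μg/g to 8.99 without added Se.

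The response of Abcc4 to Se deficiency was larger in liver than in kidney by 0.97 on the log2 scale (SE 0.27), and that of Abcc3 by 0.31 (SE 0.13). These SE treat liver and kidney arrays as independent. With liver and kidney paired by replicate number, the SE were 0.17 and 0.12. Whether equal numbers mean the same mouse is not known. By the probe set that stood for it in liver, each remaining gene differed in response by −0.003 (Abcc6) to 0.145 (Abcc1). Over all probe sets 1 difference of responses was called by limma, and 0 of the 16 members. Both responses were in view when the family was selected, so these differences are descriptions. Levels of the genes were set side by side only, since the tissues were normalized separately. On the 0.2 diet Abcc3 read 10.74 to 10.90 in liver and 6.35 to 6.42 in kidney, and Abcc6 read 9.67 to 9.80 and 6.03 to 6.07. These kidney levels lay close to or below the array medians of kidney, where a small response may not show.

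Marginal Se intake, the 0.05 against the 0.2 diet, was tested without having been used for the choice of genes, and no member was higher at the lower intake beyond the spread of the arrays. In mouse liver limma called 0 of 16 members, with a background of 0% of all probe sets, and 0 members and 878 probe sets in all passed an unadjusted p under 0.05. The groups overlapped for all 16 members, where 5.46% of all probe sets did not overlap. Abcc4 was lower by 0.19 on the log2 scale (SE 0.22), Abcc3 differed by −0.09 (SE 0.11) and Abcc2 by 0.07 (SE 0.12). In kidney 0 of 16 members were called, again with 0% of all probe sets, and 1 member and 1311 probe sets in all passed an unadjusted p under 0.05. That member was Abcc4, whose arrays on the 0.05 diet lay below those on the 0.2 diet. Its log2 difference was −0.30 (SE 0.12, adjusted p = 1 in limma with the Benjamini-Hochberg adjustment). It was the 1 of 16 members without overlap, where 6.48% of all probe sets did not overlap. Both comparisons share their Se-adequate arrays with the comparisons of Se deficiency.

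In rat liver, Abcc3 was the member with the largest difference between Se-deficient and Se-adequate rats, followed by Abcc4. Abcc3 averaged 9.50 ± 0.19 (SD, n = 3) without added Se and 7.36 ± 0.53 on the 0.24 diet, a 4.40-fold difference. Its arrays read 9.50, 9.31 and 9.69 in Se deficiency and 7.74, 7.59 and 6.75 on the 0.24 diet, and the groups did not overlap. The log2 difference was 2.14 (SE 0.36).

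Abcc4 read 7.00, 7.11 and 6.78 in Se-deficient rat liver and 6.62, 6.14 and 6.03 on the 0.24 diet. These groups did not overlap, and the log2 difference was 0.70 (SE 0.19). On the 0.24 diet Abcc4 lay close to the array medians of this study (6.257 to 6.289), and its distance from background was not tested. Abcc2 read 10.34, 10.85 and 10.99 in Se deficiency and 10.67, 10.88 and 11.20 on the 0.24 diet. These arrays overlapped, with a log2 difference of −0.19 (SE 0.30). Abcc6 read 11.02, 11.20 and 11.18 in Se deficiency and 11.30, 11.38 and 11.24 on the 0.24 diet, and the Se-deficient arrays lay below by 0.17 in mean log2 (SE 0.16). Abcc1 and Abcc5 overlapped, with log2 differences of −0.04 (SE 0.19) and −0.16 (SE 0.11). The other Abcc5 probe set differed by −0.14.

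In Se-deficient rat liver limma called 0 of the 7 members, where 0.00322% of all probe sets were called. At an unadjusted p under 0.05 there were 2 members, Abcc3 and Abcc4, and 1055 of all 31042 probe sets. Groups did not overlap for 3 of 7 members, against 11.6% of all probe sets. All of these counts, that at an unadjusted p included, restate the values on which the family was selected and are not evidence for them. The 7 hepatocyte markers had 0 calls and averaged 13.78 to 13.92 in Se deficiency and 13.82 to 13.89 on the 0.24 diet. The blood marker Alas2 read 7.31 to 8.43 against 6.54 to 7.64, a log2 difference of 0.83 that was not called, and its part in the Abcc values was not tested.

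On the 2 diet, which the choice of genes did not use, Abcc4 and Abcc3 lay above the Se-adequate rats on every array, but neither passed the test. Abcc4 read 7.42, 7.04 and 6.85, a log2 difference of 0.84 from the 0.24 diet (SE 0.19, 1.79-fold, adjusted p = 0.321 in limma). Abcc3 read 7.85, 7.93 and 8.10, a log2 difference of 0.60 (SE 0.36, adjusted p = 0.405 in limma). Abcc2 read 11.96, 11.39 and 10.88 and overlapped the Se-adequate arrays at a log2 difference of 0.49 (SE 0.30). Abcc1, Abcc5 and Abcc6 overlapped too, with log2 differences of 0.18 (SE 0.19), 0.18 (SE 0.11) and 0.19 (SE 0.16). Limma called 0 of 7 members, against 0.00322% of all probe sets, while 1 member (Abcc4) and 4762 probe sets in all passed an unadjusted p under 0.05. The 2 members without overlap compare with 12.8% of all probe sets.

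The array of replicate 1 on the 2 diet stood apart from the rest. On it 1964 probe sets differed more than 2-fold from the mean on the 0.24 diet, against 136 and 147 on the other arrays of the diet. This array held the highest value of Abcc2, Abcc4, Abcc5 and Abcc6 in its group and the lowest of Abcc3. Array weights, which lower the influence of arrays with large residuals, gave calls for Abcc1, Abcc2, Abcc4 and Abcc5, with log2 differences of 0.45, 0.61, 0.62 and 0.24, in a fit that called 42% of all probe sets. Without this array the log2 difference of Abcc4 was 0.68 (adjusted p = 0.81 in limma). Without replicate 3 on the 2 diet Abcc4 was called (0.97, adjusted p = 0.0129 in limma), in a fit that called 18.7% of all probe sets.

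On the toxic 5 diet Abcc3 and Abcc4 were both higher than in Se-adequate rats, Abcc1 had a higher mean, and Abcc2 and Abcc6 had lower means. The paper reports reduced growth and raised plasma markers of liver damage in rats on this diet. Differences that go with Se itself cannot be told apart from differences that go with these. Abcc3 read 10.78, 9.51 and 9.11, and Abcc4 read 7.82, 7.33 and 7.73. No array of either gene overlapped the Se-adequate group. The log2 differences were 2.44 for Abcc3 (SE 0.36, 5.44-fold, means 9.80 ± 0.87 and 7.36 ± 0.53) and 1.36 for Abcc4 (SE 0.19, 2.58-fold, means 7.63 ± 0.26 and 6.26 ± 0.32).

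The transporter of the bile canaliculus, Abcc2, read 10.99, 9.99 and 10.25 on the 5 diet and overlapped the Se-adequate group, at a log2 difference of −0.51 (SE 0.30). Abcc6 read 10.68, 10.87 and 11.20, below every Se-adequate array, at a log2 difference of −0.39 (SE 0.16). Abcc1 read 7.03, 7.29 and 6.59 against 6.64, 6.60 and 6.43, a log2 difference of 0.41 (SE 0.19) with overlap. The 2 probe sets of Abcc5 differed by 0.07 each. 

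Limma called 2 of the 7 members on the 5 diet, Abcc3 and Abcc4, where 2.82% of all probe sets were called, and 3 of 7 did not overlap, against 23.6% of all. Like those of Se deficiency, these counts restate the values on which the family was selected and are not evidence for them. Without replicate 1 on the 2 diet, a choice made after seeing the data, the count stayed at 2. Markers of other cell types moved in the same comparison. Of 5 stellate cell markers 3 rose, Col1a1 by 1.62, Des by 0.94 and Acta2 by 0.90, and 1 fell, Lrat (−2.11), with list averages of 8.26 to 8.75 on the 5 diet and 8.08 to 8.42 on the 0.24 diet. Of 4 bile duct markers 1 rose (Krt19, 2.63), with list averages of 6.87 to 7.86 against 5.97 to 7.05, and of 4 endothelial markers 1 rose (Pecam1, 0.92) while the others had lower means (median log2 difference of the list −0.22), with averages of 9.85 to 10.23 against 9.84 to 10.16. Of 4 macrophage markers 1 fell (Clec4f, −1.78), with averages of 8.51 to 8.86 against 9.06 to 9.20. However, 2 of these 4 had higher means, and the median log2 difference of the list was −0.12. Of the blood markers 1 was measured, Alas2 of heme synthesis in red cells, which read 7.78 to 8.72 against 6.54 to 7.64, a log2 difference of 1.31 (SE 0.35) that was not called. None of the 7 hepatocyte markers was called, and they averaged 13.70 to 13.80 against 13.82 to 13.89. No value on these arrays is a true 0, and the part of these markers in the levels of Abcc3 and Abcc4 was not tested.

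**Figure D3:**
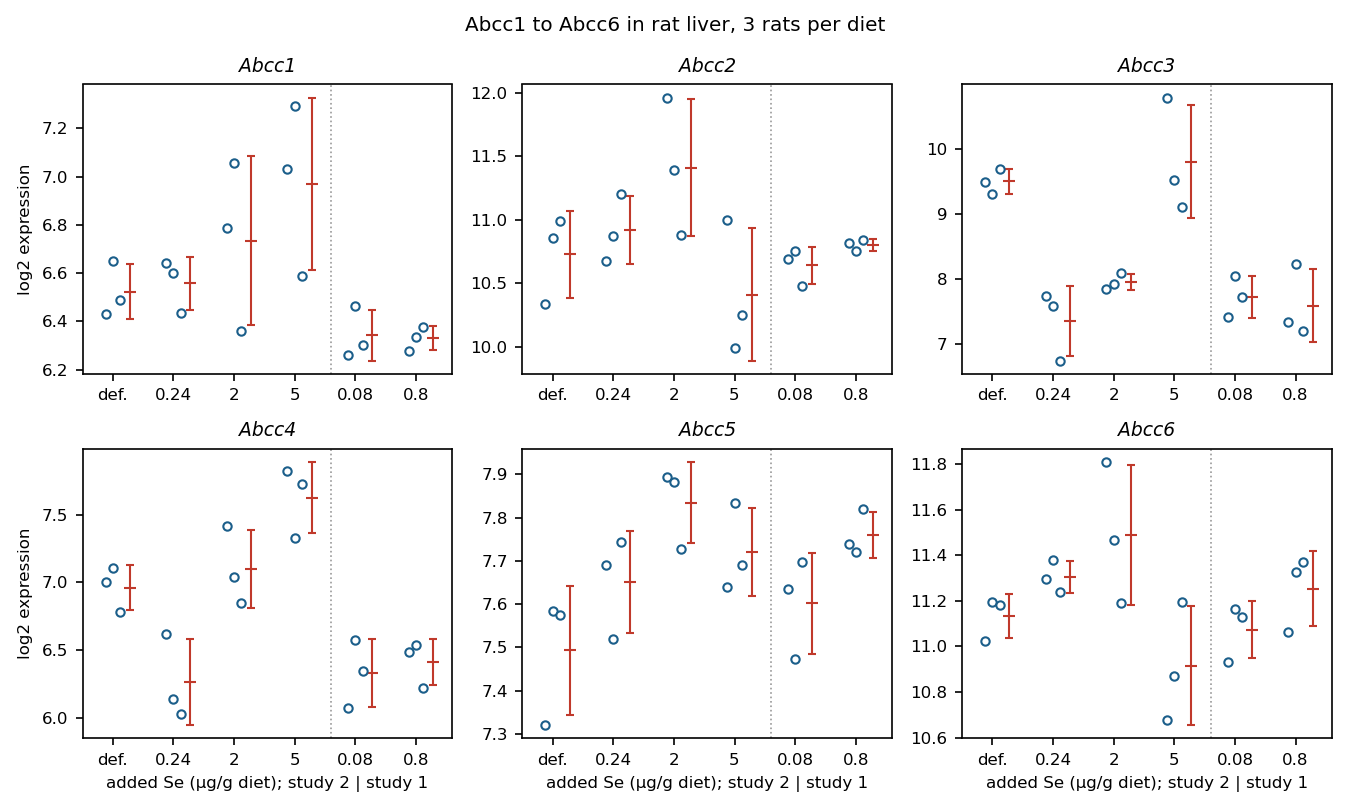
Log2 expression of Abcc1 to Abcc6 in rat liver (vertical axes, a separate range per gene) against the Se added to the diet (horizontal axes, μg/g, def. for none), with the study of 4 diets left and that of 2 diets right of the dotted line. Circles are single rats and red bars the mean and SD of 3. The circles of Abcc3 without added Se and at 5 μg/g start at 9.11, and those of the other 2 diets of the same study end at 8.10.

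The order of the 4 diets of this study differed between the genes. For Abcc3 the order of means was the 5 diet (9.80), the Se-deficient diet (9.50), the 2 diet (7.96) and the 0.24 diet (7.36). The upper pair overlapped, and neither the next step nor the last did. For Abcc4 the order was the 5 diet (7.63), the 2 diet (7.10), the Se-deficient diet (6.96) and the 0.24 diet (6.26). Here only the last step was free of overlap. All 3 comparisons share the Se-adequate arrays.

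In the other rat study, which set the 0.8 against the 0.08 diet, no member passed the test. Abcc3 read 7.34, 8.23 and 7.21 on the 0.8 diet and 7.41, 8.06 and 7.73 on the 0.08 diet, a log2 difference of −0.14 (SE 0.27). Abcc4 read 6.49, 6.54 and 6.22 against 6.07, 6.57 and 6.35, a log2 difference of 0.08 (SE 0.15). Both genes overlapped between these diets. Limma called 0 of 7 members and 0% of all probe sets, and 0 members and 1421 probe sets in all passed an unadjusted p under 0.05. Abcc5 was the 1 of 7 members without overlap, at 7.74, 7.72 and 7.82 against 7.64, 7.47 and 7.70, where 9.46% of all probe sets did not overlap. Its log2 difference was 0.16 (SE 0.10, adjusted p = 0.967 in limma).

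**Figure D4:**
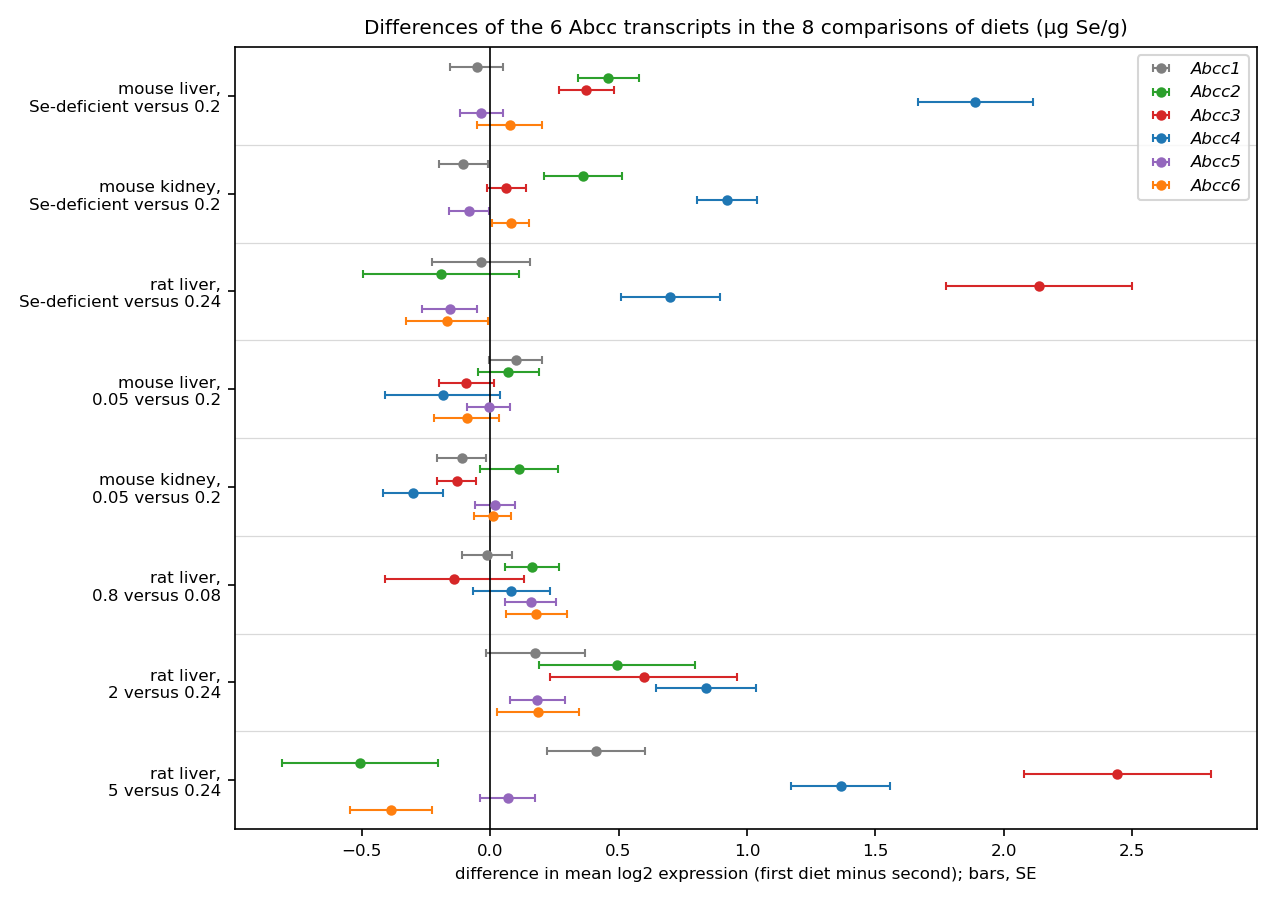
Differences in mean log2 expression of Abcc1 to Abcc6 (horizontal axis, first diet minus second) in the 8 comparisons of diets (vertical axis, μg Se/g), where bars are the SE of limma. Abcc4 has the largest difference in both mouse tissues in Se deficiency (1.89 and 0.92), Abcc3 in Se-deficient rat liver (2.14) and on the 5 diet (2.44), and for the 0.05 and 0.8 diets all points lie between −0.30 and 0.18.

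Genes with the pattern most like that of Abcc4 over the 9 mouse liver arrays were Cbr1, Nqo1, Gsta2, Hspb1 and Cbr3, out of 18192 genes. Likeness was the root mean square difference, array by array, of the log2 deviation from the Se-adequate mean, and it was 0.59, 0.62, 0.63, 0.64 and 0.68 in that order, where the deviation of Abcc4 itself was 1.13. In Se-deficient liver Cbr3, a carbonyl reductase, lay 2.94 above the Se-adequate mean and Cbr1, another, 0.92. The quinone reductase Nqo1 lay 0.89 above it, the glutathione transferase Gsta2 0.95 and the small heat shock protein Hspb1 0.93. For Abcc3 over the 12 arrays of the rat study of 4 diets the nearest of 14216 genes were Cryl1, Akr7a3, Gsta3, Rgs16 and Myc, at 0.62, 0.73, 0.75, 0.84 and 0.90, where the deviation of Abcc3 itself was 1.70. Cryl1, a lambda-crystallin of sugar metabolism, lay 1.19 above the Se-adequate mean in Se deficiency and 1.94 on the 5 diet. Akr7a3, an aldehyde reductase, lay 1.84 and 1.14 above it and Gsta3 1.57 and 1.22. Rgs16, a regulator of G-protein signalling, lay 1.50 and 2.16 above it, and the transcription factor Myc 1.45 and 1.34. These genes were picked for their likeness to a gene that was itself chosen on its values, so they are descriptions with no test.

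Genes that work beside these pumps were taken from lists for conjugation, uptake, regulation and membrane anchoring. Among 17 measured genes of glutathione supply and conjugation, 15 had a higher mean in Se-deficient mouse liver, 10 in Se-deficient mouse kidney and 16 in Se-deficient rat liver, and limma called 0 in each. Their median log2 differences were 0.26, 0.16 and 0.30, against −0.02, −0.01 and −0.01 over all probe sets. Gsta2 (0.95, SE 0.13) in mouse liver, Gsta3 in mouse kidney (0.80, SE 0.09) and Gsta3 in rat liver (1.57, SE 0.23), all glutathione transferases of the alpha class, had the smallest p of the list. On the 5 diet, where 2.82% of all probe sets were called, 4 of the 17 rose and 0 fell, namely the cystine importer Slc7a11 (2.46), the transferases Gstp1 (2.45) and Gstm3 (2.23), and Gsta3 (1.22).

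Other ABC transporters gave 0 calls in the 3 comparisons of Se deficiency and on the 2 and 5 diets, with 13 measured on the mouse and 11 on the rat array. Abcg2, an exporter of sulfate conjugates, differed by 0.21 (SE 0.12) in Se-deficient mouse liver and by 0.69 (SE 0.29) in Se-deficient rat liver. Of 8 anion uptake transporters, which bring such substrates into the cell, 2 fell on the 5 diet. These were Slc22a7 (−0.49) and Slc22a8 (−0.85), and 1 of the 8 had a higher mean, with a median log2 difference of −0.46 against −0.03 over all probe sets. Of 13 measured transcription regulators 2 rose on the 5 diet, the small Maf proteins Maff (0.90) and Mafk (0.64), and none was called in Se deficiency, where Nfe2l2 itself differed by −0.29 (SE 0.12) in rat liver. Of 5 proteins that anchor transporters in the membrane, Msn rose on the 5 diet (0.90), while Rdx, which holds Abcc2 in the canalicular membrane, differed by −0.19 (SE 0.19). In the 7 comparisons other than that of the 5 diet, none of the genes on these 5 lists was called by limma.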

How the data were processed

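RNA from mouse liver and kidney was hybridized to Affymetrix whole-genome mouse arrays and RNA from rat liver to the matching rat arrays. The deposited values are log2 expression. Per the methods the authors computed them with RMA, separately for each study and tissue, whereas the submitters' notes name GCRMA. With all rat arrays fitted together, limma called 1193 probe sets on the 5 diet, the number of transcripts the paper reports. The main fit, which kept the rat studies apart, called 875 and so departs from the paper's number. Whether the authors normalized the rat studies together was not tested. All 36 value columns were used. The 64 mouse and 57 rat control probe sets were left out, and probe sets were named from the GEO platform annotation. The assignment of rat diets to 2 studies follows the text of the paper.

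Groups came from the labels. Differences were fitted with limma 3.58.1 in R 4.3.3 (lmFit with 1 coefficient per diet, eBayes) on the 9 or 12 arrays of a tissue and study (6 in the smaller rat study), with Benjamini-Hochberg adjustment over all 45037 or 31042 probe sets and a threshold of 0.05. The fit was tested on simulated data. Figures used Python 3.11.15, numpy 2.4.6 and matplotlib 3.10.9. The probe set with the highest mean in a fit stands for its gene, and others are given as ranges. The 5 nearest genes by likeness and, from each gene list, at most 4 genes with the smallest p and those called were named. The members and lists were chosen with earlier results of these data known. Replicates were separate animals, and no exact test of 3 against 3 goes below p = 0.10. Replicate numbers deviated together in Se-deficient and Se-adequate mouse liver (r of 0.462, 0.105 and 0.319, each above 0.1), but number 2 correlated better with another number. This is a hint from the data only. In each other comparison at least 1 number lay below 0.1. In Se-deficient mouse kidney and in rats on the 5 diet each number nevertheless correlated best with its own.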

Additional observations from a re-analysis of the deposited data

How the results depend on the processing

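Alternatives were a fit on the compared diets alone, 1 fit of all arrays of a species, a trended and robust variance, array weights, a filter on low signal, quantile normalization, a replicate block, the mean over the probe sets of a gene and leaving out 1 array at a time. Single genes were followed where their unadjusted p was under 0.05. No difference changed sign. By construction it stays the same in the fits on compared diets, all arrays of a species, trended variance, low-signal filter and replicate block. Each gene followed had 1 probe set, so the mean over probe sets repeats the main value. Of 175 values for single genes under an alternative, 165 kept their side of the threshold, 5 passed it and 5 no longer did. Many of the 165 had adjusted p in limma far above the threshold. The 5 lost calls were all of Abcc4 in Se-deficient mouse liver.

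In Se-deficient mouse liver the number of members called was 1, where 0.0222% of all probe sets were called. It was 0 with only the compared diets in the fit, with the log2 difference of Abcc4 again 1.89. Leaving out 1 array gave 0 to 1 calls there. In Se-deficient kidney the count was 0 (0.00666% of all probe sets called), and 1 with array weights (Abcc4, 0.0133%). It was 0 to 1 with 1 array left out. On the 2 diet it was 0, and 4 with array weights, a setting whose estimation stopped before full convergence in some fits. It was 0 to 1 with 1 array left out. On the 5 diet the count stayed at 2 except with array weights, where Abcc6 made it 3 (a log2 difference of −0.44). That fit called 10.3% of all probe sets, against 2.82% in the main fit. Leaving out 1 array on the 5 or 0.24 diet gave log2 differences of 1.95 to 2.79 for Abcc3 and 1.25 to 1.54 for Abcc4. With the replicate block Abcc4 on the 2 diet had adjusted p = 0.307 in limma and Abcc4 in kidney on the 0.05 diet 0.991, and the block changed no call.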
